A study of Mus musculus with 21 samples.

Results

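Toll-like receptors are the membrane sensors through which cells read microbial lipids, flagella and nucleic acids, and some also read host molecules released from injured tissue. Each receptor has an ectodomain that binds the ligand and a cytoplasmic domain that recruits an adaptor. MyD88 is the adaptor for all of them except TLR3, which signals through TRIF, and the pathway ends in NF-kB, AP-1 and interferon regulatory factors that switch on cytokine genes. In the kidney these receptors are known from resident and infiltrating macrophages and dendritic cells, and some are also made by tubular epithelium.

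The genes described here are 9 receptors (Tlr1, Tlr2, Tlr3, Tlr4, Tlr6, Tlr7, Tlr8, Tlr9 and Tlr13) and Myd88. They were found by symbol, and all 10 were present among the 20634 genes that both count tables share. Their mRNA was read by RNA-seq of whole kidneys from female apoE knockout mice on a C57BL/6J background, which were put on the diets at 4 weeks of age and fed for 14 weeks, so that all were 18 weeks old. The Con group (5 mice) received the control diet, the Ade group (6 mice) received adenine, which injures the tubules and gives chronic kidney disease, and the Ade + IMC group (6 mice) received adenine with iodomethylcholine (IMC), an inhibitor of the gut bacterial enzyme that makes trimethylamine. A further 4 mice, on the control diet with IMC, were not analysed here. The loss of apoE is shared by every group, so none of the mice had a wild-type lipid background, and Apoe itself still gave reads, with counts per mouse of 47 to 110 (Con), 89 to 214 (Ade) and 86 to 171 (Ade + IMC).

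Total counts per mouse ran from 7716126 to 11680809 in the Con group, 5444833 to 7673215 in the Ade group and 5728589 to 8305968 in the Ade + IMC group. Levels are given as CPM (reads scaled to a common library size, with TMM scaling over the 17 mice). For the Ade + IMC mice CPM was computed from reads recovered from a normalized table, so a level set between these mice and the Con mice crosses 2 tables. Levels of different genes are compared as RPKM, that is CPM per kilobase of exon. Kidney markers were present in every group: the 6 proximal tubule markers summed to 9779 to 14898 CPM (Con), 1393 to 5663 (Ade) and 2316 to 4694 (Ade + IMC). A whole kidney is a mixture, and in it a gain of cells of a type cannot be told apart from more RNA per cell.

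All 10 genes rose in the Ade kidneys at a Benjamini-Hochberg adjusted p below 0.1, the threshold of the study's methods, in edgeR's quasi-likelihood test. Of all 14612 genes tested, 35.1% were called higher and 32.2% lower. The sizes differed widely. Tlr8, Tlr2, Tlr1, Tlr13 and Tlr9 rose 6.21-fold to 10.7-fold, Tlr7 and Tlr6 rose 3.55-fold and 3.48-fold, and Tlr4, Myd88 and Tlr3 rose 2.24-fold, 2.03-fold and 1.39-fold. The median log2 change of the 10 genes was 2.23 and that of all genes tested was 0.02. In 9 of the 10 genes, every Ade mouse lay above every Con mouse, which held for 22.4% of all genes tested, and Tlr3 was the exception. The adjusted p stayed below 0.1 for all 10 in each of the 17 alternatives run.

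**Figure D1:**
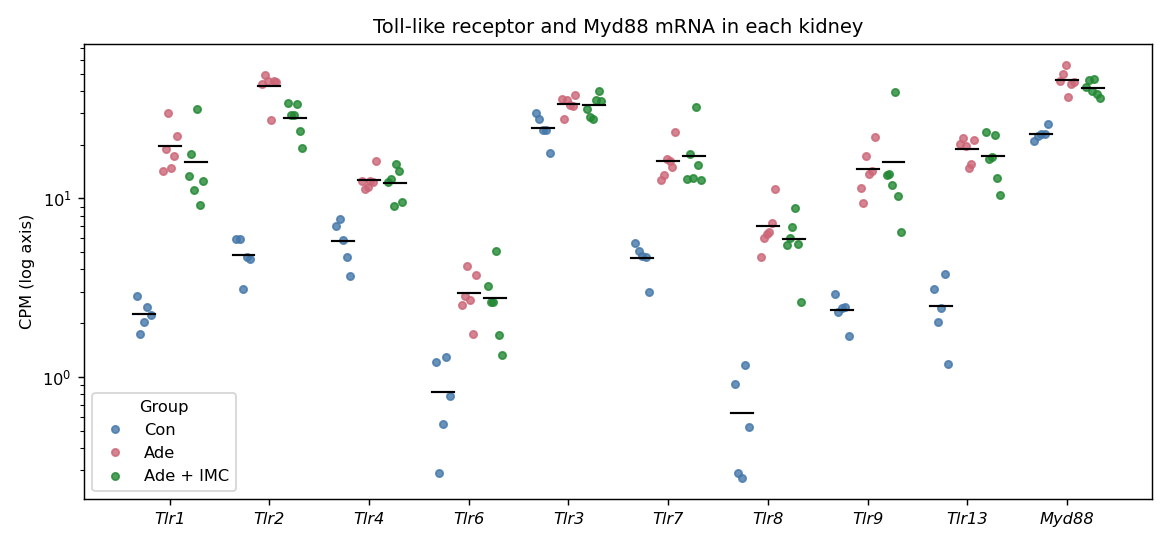
CPM of each gene in each of the 17 kidneys on a log axis, with Con in blue (5 mice), Ade in red (6) and Ade + IMC in green (6), and a black bar at each group mean. For every gene but Tlr3 the red and green points lie above all blue points, while the green points of Tlr2 lie below 5 of the 6 red points.

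Among the receptors of the cell surface, TLR2 pairs with TLR1 to bind triacylated bacterial lipopeptides and with TLR6 to bind diacylated ones. Tlr2 (GRCm38 chr3:83836272-83841767, minus strand) was at 5.95, 5.92, 3.11, 4.68 and 4.57 CPM in the Con mice, at 27.6 to 49.0 in the Ade mice (median 45.2) and at 19.1 to 34.3 in the Ade + IMC mice (median 29.3). The lowest Ade + IMC mouse was thus more than 3-fold above the highest Con mouse. The Ade mice lay close together except mouse 407, which lay far below them. The log2 change from Con to Ade was 3.15 (SE 0.18, adjusted p = 2.14e-08).

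Tlr1 and Tlr6 are neighbours on chromosome 5 (chr5:64924679-64933563 and chr5:64952031-64960097, both on the minus strand), and 454 of the 50-base windows of their transcripts are identical, which is 13.6% of the windows of Tlr1 and 12.3% of those of Tlr6, so reads from these stretches cannot be assigned to 1 of the pair. Tlr1 was at 2.83, 1.73, 2.03, 2.47 and 2.22 CPM in the Con mice, at 14.2 to 30.2 in the Ade mice (median 18.1) and at 9.16 to 31.9 in the Ade + IMC mice (median 12.9), a log2 change from Con to Ade of 3.12 (SE 0.23, adjusted p = 1.61e-07). The Con mice lay close together, whereas mouse 308 was highest of the Ade group and mouse 311 highest of the Ade + IMC group by a wide margin. Tlr6 was much less abundant. It was at 1.21, 0.289, 0.542, 1.30 and 0.784 CPM in the Con mice, from only 2 to 12 reads per mouse, at 1.75 to 4.18 in the Ade mice (median 2.77) and at 1.32 to 5.10 in the Ade + IMC mice (median 2.63). Its log2 change was 1.80 (SE 0.34, adjusted p = 0.000411), and the lowest Ade + IMC mouse was barely above the highest Con mouse.

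TLR4 is the receptor for lipopolysaccharide, which it binds with the helper proteins CD14 and MD-2. Tlr4 (chr4:66827584-66930284, plus strand) was at 6.96, 7.65, 5.82, 4.68 and 3.66 CPM in the Con mice, at 11.2 to 16.3 in the Ade mice (median 12.4) and at 9.12 to 15.6 in the Ade + IMC mice (median 12.6). The groups on adenine did not overlap the Con mice, but the log2 change was only 1.17 (SE 0.18, 95% interval 0.77 to 1.56, adjusted p = 0.000102), below the whole interval of Tlr2 (2.76 to 3.54). Cd14, named here after its values were seen, rose by more, with a log2 change of 3.29 (SE 0.29, adjusted p = 6.89e-07), and Ly96, the gene of MD-2, had 0.43 (SE 0.21, adjusted p = 0.0886).

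The other receptors read nucleic acids inside endosomes: TLR3 double-stranded RNA, TLR7 single-stranded RNA, TLR9 DNA with unmethylated CpG, and TLR13, which mice have and humans lack, a stretch of bacterial ribosomal RNA. TLR8 is the closest relative of TLR7. Tlr7 and Tlr8 lie next to each other on the X chromosome (chrX:167304929-167330558 and chrX:167242696-167264329, minus strand). Tlr7 was at 5.65, 5.05, 4.74, 4.68 and 3.01 CPM in the Con mice, at 12.7 to 23.5 in the Ade mice (median 15.6) and at 12.8 to 32.4 in the Ade + IMC mice (median 14.2). Tlr8 was at 0.908, 0.289, 0.271, 1.17 and 0.523 CPM in the Con mice, at 4.70 to 11.2 in the Ade mice (median 6.42) and at 2.64 to 8.84 in the Ade + IMC mice (median 5.78). The intervals of these neighbours did not overlap: the log2 change from Con to Ade was 1.83 for Tlr7 (95% interval 1.41 to 2.24, adjusted p = 3.64e-06) and 3.42 for Tlr8 (2.68 to 4.16, adjusted p = 2.37e-06), the latter from 2 to 9 reads in each Con mouse.

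Tlr9 (chr9:106222598-106226883, plus strand) was at 2.93, 2.31, 2.44, 2.47 and 1.70 CPM in the Con mice, at 9.43 to 22.1 in the Ade mice (median 13.9) and at 6.45 to 39.7 in the Ade + IMC mice (median 12.7). Its log2 change from Con to Ade was 2.63 (SE 0.24, adjusted p = 8.29e-07), and its spread in the Ade + IMC group came mainly from mouse 311. Tlr13 (chrX:106143204-106160493, plus strand) was at 3.13, 2.02, 2.44, 3.77 and 1.18 CPM in the Con mice, at 14.7 to 21.7 in the Ade mice (median 19.9) and at 10.4 to 23.5 in the Ade + IMC mice (median 16.8). It was even across the Ade mice, with a log2 change of 2.91 (SE 0.23, adjusted p = 2.47e-07).

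Tlr3 (chr8:45395665-45411080, minus strand) was different in both level and change. It was at 30.0, 27.9, 24.2, 24.0 and 18.0 CPM in the Con mice, at 27.8 to 38.2 in the Ade mice (median 34.3) and at 27.9 to 40.1 in the Ade + IMC mice (median 33.5). Mouse 208 of the Ade group lay below 2 of the Con mice, so the groups overlapped. The log2 change was 0.47 (SE 0.12, 95% interval 0.21 to 0.73, adjusted p = 0.00408). This interval does not reach that of any other receptor. Of its 5207 exonic bases, 381 also belong to a gene of the other strand, Gm45542, and the use of strand in counting is not stated.

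Myd88 (chr9:119335934-119341411, minus strand) was at 20.9, 22.2, 22.9, 23.0 and 26.1 CPM in the Con mice, at 36.9 to 56.1 in the Ade mice (median 45.1) and at 36.5 to 46.5 in the Ade + IMC mice (median 40.9). The Con mice lay close together and no mouse on adenine reached down to them. The log2 change from Con to Ade was 1.02 (SE 0.11, adjusted p = 3.47e-06). Its exons share 290 of 2576 bases with Acaa1a on the other strand. Acaa1a was at 75.9 to 98.1 CPM in the Con mice and 69.2 to 85.3 in the Ade mice, ranges that overlap. The part of such shared bases in the Myd88 counts was not tested.

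**Figure D2:**
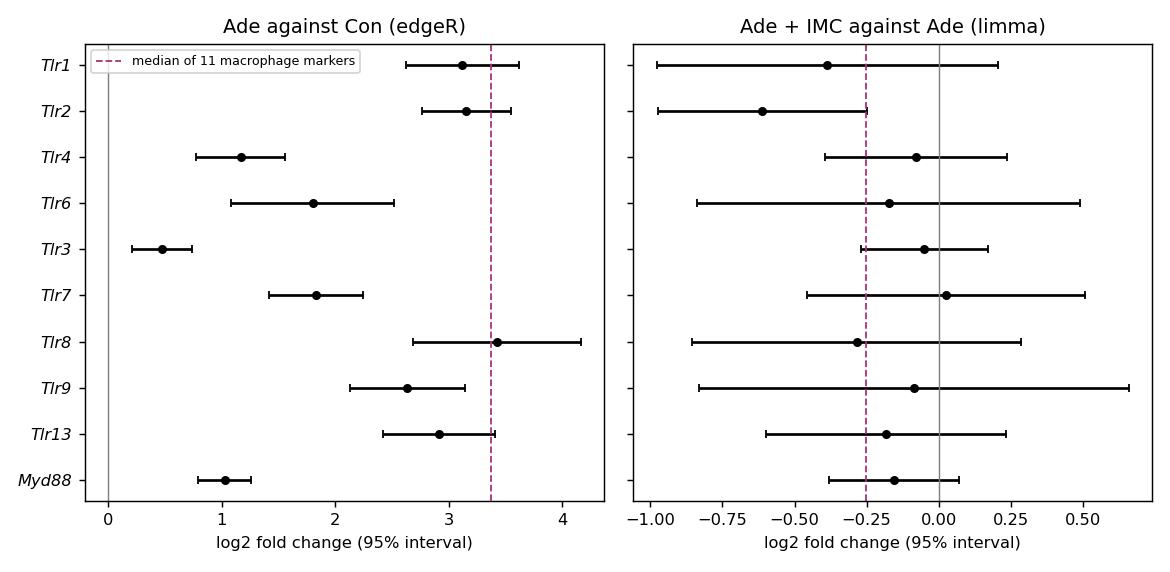
Log2 fold change of each gene with its 95% interval, for Ade against Con by edgeR (left) and Ade + IMC against Ade by limma (right), with 0 as a grey line and the median of 11 macrophage markers dashed. The left panel spans 0.47 for Tlr3 to 3.42 for Tlr8, and in the right panel only the interval of Tlr2 leaves out 0.

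With these unequal changes, the make-up of the mRNA of these 9 receptors shifted. In the Con kidneys the order of the RPKM means was Myd88 (8.94 ± 0.75, SD, n = 5), Tlr3 (4.77 ± 0.87), Tlr2 (1.61 ± 0.39), Tlr7 (1.13 ± 0.24), Tlr4 (1.04 ± 0.29), Tlr9 (0.68 ± 0.13), Tlr1 (0.67 ± 0.12), Tlr13 (0.58 ± 0.23), Tlr6 (0.22 ± 0.12) and Tlr8 (0.18 ± 0.11). Myd88, Tlr3 and Tlr2 were separated from each other in every mouse, and from Tlr2 downward the ranges of neighbours overlapped. In the Ade kidneys the order was Myd88 (17.9 ± 2.48, SD, n = 6), Tlr2 (14.2 ± 2.53), Tlr3 (6.52 ± 0.68), Tlr1 (5.87 ± 1.79), Tlr13 (4.37 ± 0.68), Tlr9 (4.22 ± 1.29), Tlr7 (3.98 ± 0.94), Tlr4 (2.29 ± 0.33), Tlr8 (1.95 ± 0.62) and Tlr6 (0.79 ± 0.23). Here Tlr2 stood clear of Tlr3, Tlr7 of Tlr4 and Tlr8 of Tlr6, while the ranges of the other neighbours overlapped. In the Ade + IMC kidneys Tlr2 (9.37 ± 1.95 RPKM) was again the first of the receptors and Tlr3 (6.37 ± 0.89) the second, but their ranges overlapped.

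The summed RPKM of the 9 receptors was 10.9 ± 1.95 (SD, n = 5) in the Con kidneys, 44.2 ± 6.10 (n = 6) in the Ade kidneys and 37.9 ± 11 (n = 6) in the Ade + IMC kidneys. Within a mouse, the share of a receptor in this sum does not depend on library scaling. Tlr3 made up 41.4% to 46.6% of the sum (Con), 12.5% to 17.7% (Ade) and 11.6% to 25% (Ade + IMC). Tlr2 made up 10.3% to 18.6%, 25.4% to 38.0% and 19.0% to 29.5% in the same order, so that every Ade mouse had a larger share of Tlr2 than of Tlr3 and every Con mouse the reverse. The Ade + IMC mice were mixed, with 5 like the Ade mice and mouse 412 with more of Tlr3 (25%) than of Tlr2 (23.4%). Myd88 was lower in relation to these 9 receptors in the mice on adenine: its RPKM was 0.607 to 1.24 times their summed RPKM (Con), 0.327 to 0.450 times (Ade) and 0.307 to 0.525 times (Ade + IMC). The sum leaves out Tlr5, Tlr11 and Tlr12, and Tlr12 was above Tlr3 in every Con mouse (6.35 to 8.18 against 3.46 to 5.76 RPKM). A sum with Tlr12 would be larger, so the Con shares of Tlr3 and the Con ratios of Myd88 would be lower. These shares and ratios are given as a description and were not tested.

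**Figure D3:**
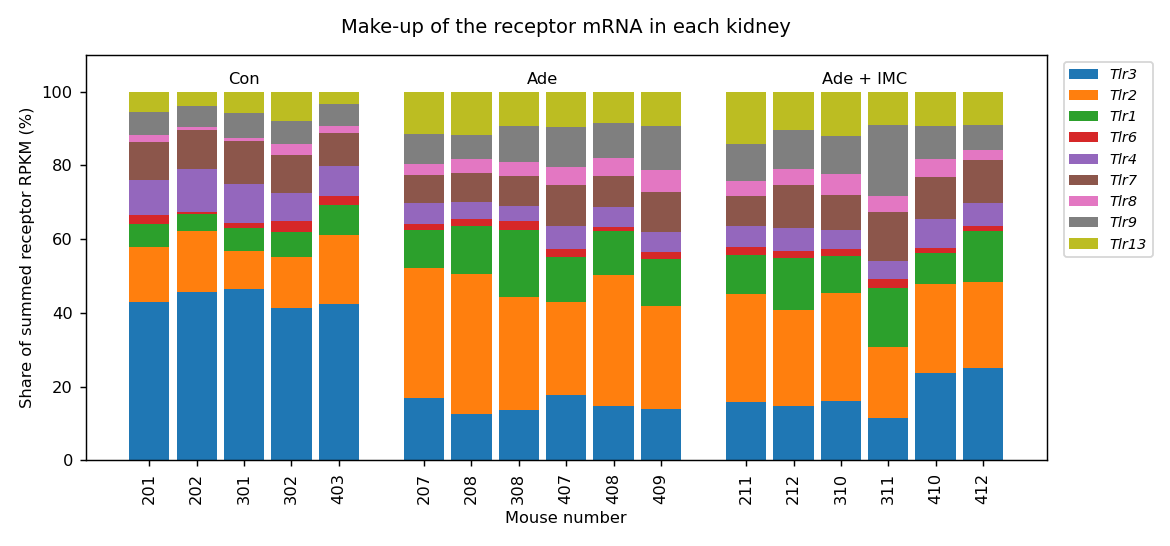
Share of each of the 9 receptors in their summed RPKM (in percent), 1 bar per kidney labelled with its mouse number, grouped as Con, Ade and Ade + IMC. The share of Tlr3 (blue) is at least 41.4% in each Con bar and at most 25% in each bar of the mice on adenine, and mouse 311 has the largest share of Tlr9 (grey, 19.4%).

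The 3 remaining mouse receptors, chosen as a background to the 9, did not all behave alike. Tlr5, the receptor for flagellin, rose from 0.523 to 1.59 CPM in the Con mice to 2.50 to 3.94 in the Ade mice (log2 change 1.73, SE 0.26, adjusted p = 7.31e-05). Tlr11, which reads the profilin of parasites, rose by 1.92 (SE 0.35, adjusted p = 0.000357). Tlr12, its partner for profilin, was at 7.29 ± 0.73 RPKM (SD, n = 5) in the Con kidneys, above Tlr3 and every other receptor in each Con mouse. It fell by 0.69 on the log2 scale (SE 0.14, adjusted p = 0.000893), with every Ade mouse (10.3 to 19.4 CPM) below every Con mouse (20.2 to 26), as in 20.6% of all genes tested.

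The promoters of Tlr1, Tlr8, Tlr9 and Tlr13 are shown because they share a short motif, the core of the site of PU.1, a transcription factor of macrophages and B cells, and they were chosen for it. RefSeq promoters of GRCm38.p6 were matched for 8 of the 10 genes, not for Tlr4 and Tlr7, and Tlr1 and Tlr6 have 2 each, which gives 10 promoters. The letters GAGGAA, searched on both strands in the 250 bases before each start, occurred in 4 of these 10, for Tlr1 (in 1 of its 2 promoters), Tlr8, Tlr9 and Tlr13, and in 23.3% of all 32851 promoters of this length. The promoter of Tlr2, whose rise was among the largest, held no match, but only 91 of its 250 bases lie before the annotated exons. The match began 23 bases before the start in Tlr1, 77 in Tlr8, 83 in Tlr13 and 112 in Tlr9. The windows are printed without the stretches that overlap annotated exons, on the strand of the gene, with the match in capitals (TTCCTC is GAGGAA on the other strand).
Tlr1 (chr5:64933564-64933808, minus): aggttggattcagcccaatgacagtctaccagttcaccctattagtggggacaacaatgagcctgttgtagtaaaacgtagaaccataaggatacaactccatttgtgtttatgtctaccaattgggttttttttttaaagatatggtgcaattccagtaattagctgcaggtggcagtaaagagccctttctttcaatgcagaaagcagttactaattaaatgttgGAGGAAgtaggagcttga
Tlr8 (chrX:167264330-167264579, minus): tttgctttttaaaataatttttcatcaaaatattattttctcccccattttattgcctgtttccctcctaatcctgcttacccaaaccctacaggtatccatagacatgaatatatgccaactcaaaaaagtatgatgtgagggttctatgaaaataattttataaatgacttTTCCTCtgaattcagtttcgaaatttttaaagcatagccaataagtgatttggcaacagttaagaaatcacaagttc
Tlr9 (chr9:106222348-106222597, plus): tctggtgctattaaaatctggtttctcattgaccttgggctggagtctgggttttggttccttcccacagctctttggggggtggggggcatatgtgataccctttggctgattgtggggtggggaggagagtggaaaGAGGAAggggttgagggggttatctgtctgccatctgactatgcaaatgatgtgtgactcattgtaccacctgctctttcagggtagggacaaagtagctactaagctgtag
Tlr13 (chrX:106143025-106143203, plus): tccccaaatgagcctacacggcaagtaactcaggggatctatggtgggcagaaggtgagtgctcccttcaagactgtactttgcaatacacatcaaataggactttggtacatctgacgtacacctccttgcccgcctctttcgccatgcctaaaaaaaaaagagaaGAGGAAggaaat
The other motifs searched on both strands were an NF-kB site (in 1.21% of all promoters), which occurred for Tlr3 in a window that annotated exons cover whole, an interferon-stimulated response element (2.98%), which occurred for Myd88 and for Tlr6 in the promoter whose start matches no annotated transcript, an AP-1 site (TGANTCA, 6.75%), which occurred for Tlr9, and a TATA box (TATAAA, 12.4%), which occurred for Tlr6, Tlr8 and Myd88. A match is a run of letters, and binding at these places was not measured.

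Markers of several immune cell types were higher in the Ade kidneys along with the receptors. Of 11 macrophage markers 10 rose and 1, Mertk, fell, with a median log2 change of 3.37, and their summed level was 373 to 406 CPM (Con), 1657 to 2625 (Ade) and 1497 to 2455 (Ade + IMC). All 6 dendritic cell markers, all 5 B cell markers, all 6 T cell markers and the tested 2 of 3 plasmacytoid dendritic cell markers rose. The summed B cell markers were at 2.87 to 3.79 CPM (Con), 8.86 to 130 (Ade) and 6.58 to 303 (Ade + IMC), and the summed T cell markers at 5.15 to 11.8, 47.3 to 182 and 52.9 to 265. The summed neutrophil markers were at 1.44 to 3.64, 21.6 to 42.3 and 13.2 to 50.2 CPM, all 3 that were tested rose, and Ly6g and Ngp were not analysed here. The 6 proximal tubule markers all fell, as did 5 of 6 markers of the distal nephron and collecting duct and 3 of 5 endothelial markers. Over all genes tested 35.1% were called higher and 32.2% lower. The part of these cell types in the rise of the receptors was not tested.

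The members were also set beside the marker lists across the 12 mice on adenine. The values here are Pearson correlations over 12 mice after the mean of each group was subtracted. The points share library depth and scaling, and the values are given as a description, with no test of the difference between any pair of them. Tlr2 was most like the macrophage list (r = 0.81) and hardly like the B cell (0.28) and T cell lists (0.35). Tlr1, Tlr7 and Tlr9 had their highest values with the T cell list, with r = 0.93, 0.86 and 0.85, and had 0.86, 0.78 and 0.82 with the B cell list and 0.76, 0.63 and 0.68 with the macrophage list. With the dendritic cell list Tlr1, Tlr7 and Tlr9 had 0.81, 0.73 and 0.77. Tlr7 and Tlr9, which are known from plasmacytoid dendritic cells, had 0.82 and 0.84 with the list of these cells, which here is only 2 markers. Tlr6 and Tlr8 had 0.75 and 0.74 with it, so a high value was not particular to Tlr7 and Tlr9. Within its group mouse 311 was highest in Tlr1, Tlr7 and Tlr9 and in each of these lists. Without it, over 11 mice, the values of Tlr1, Tlr7 and Tlr9 with the T cell list were 0.86, 0.69 and 0.67. Those with the B cell list were 0.71, 0.52 and 0.63, those with the macrophage list 0.72, 0.52 and 0.61, and those with the dendritic cell list 0.71, 0.58 and 0.65. With the plasmacytoid list Tlr7 and Tlr9 then had 0.61 and 0.66, and Tlr6 and Tlr8 0.57 and 0.65. That of Tlr2 with the macrophage list was then 0.79. Tlr3 had -0.04 with the macrophage list and -0.81 with the neutrophil list. Myd88 had 0.78 with the macrophage list and -0.84 with the markers of the distal nephron.

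**Figure D4:**
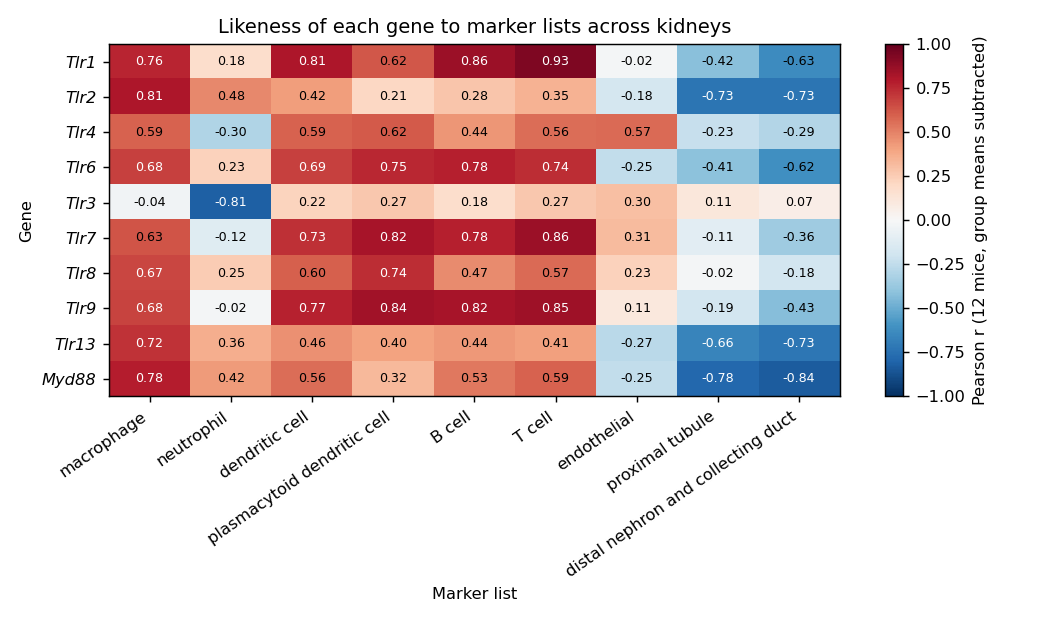
Pearson r between each gene (rows) and the level of each marker list (columns) over the 12 Ade and Ade + IMC kidneys, with group means subtracted, from blue (-1) to red (1). The macrophage column is red for every gene except Tlr3 (-0.04), and the T cell column is darkest for Tlr1, Tlr7 and Tlr9.

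Among pairs of the 10 genes, the highest values were 0.90 for Tlr7 and Tlr9 (0.72 without mouse 311) and 0.87 for Tlr2 and Tlr13 (0.86), and the lowest was -0.23 for Tlr2 and Tlr3. Of the genes tested in the comparison of Ade + IMC with Ade, those most like Tlr1 were Psmb9 (r = 0.99), Cd52 (0.98) and Evi2a (0.98), and those most like Tlr2 were Prpf31 (0.96), Epop (0.96) and Itgax (0.94). For Tlr3 they were Rpap2 (0.91), Cacna2d1 (0.88) and Nlk (0.87), and for Tlr4 Nrp2 (0.92), Thbs2 (0.91) and Cemip (0.91). For Tlr6 they were Cd80 (0.95), Heatr1 (0.94) and Zfp217 (0.94), for Tlr7 Stk4 (0.98), Cyld (0.97) and Tnfrsf14 (0.97), and for Tlr8 Scarb2 (0.90), Psap (0.89) and Susd6 (0.88). For Tlr9 they were Tox4 (0.97), Ugcg (0.96) and Prdm1 (0.96), for Tlr13 Mlkl (0.94), Elmsan1 (0.92) and Ttyh3 (0.91), and for Myd88 Wfdc17 (0.97), Crtc2 (0.97) and Plekho1 (0.96).

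The rest of the pathway was read by role. Of 14 genes whose proteins load ligands on the receptors or carry and cleave them, 10 rose in the Ade kidneys, 2 fell and 2 were not called, with a median log2 change of 1.46. All counts of this kind stand against 35.1% higher and 32.2% lower over all genes tested. The largest rise was that of Ctss, a cathepsin of antigen-presenting cells (log2 change 3.97, SE 0.18, adjusted p = 3.11e-09), and the largest fall was that of Cd36, a scavenger receptor that works with TLR2 and takes up fatty acids (fell by 1.49, SE 0.18, adjusted p = 9.38e-06). Unc93b1, which carries the endosomal receptors out of the endoplasmic reticulum and is named here after its values were seen, rose by 2.54 (SE 0.17, adjusted p = 7.08e-08).

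Of 20 adaptors and kinases between receptor and nucleus 7 rose, 6 fell and 7 were not called, shares near those of all genes tested (35.1% higher and 32.2% lower), and their median log2 change was 0.09. The largest rise was that of Ticam2, the bridging adaptor of TLR4 to TRIF (3.40, SE 0.41, adjusted p = 1.27e-05), and the largest fall was that of Chuk, the kinase IKK-alpha (fell by 0.75, SE 0.11, adjusted p = 5.48e-05). All 12 transcription factors rose (median 1.63), with Relb, an NF-kB subunit of the alternative pathway, at the top (2.43, SE 0.19, adjusted p = 2.96e-07).

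Of 14 negative regulators 9 rose, 3 fell and 2 were not called (median 1.76), where 35.1% of all genes tested were higher and 32.2% lower. Socs3, a feedback inhibitor of cytokine signalling, rose by 4.15 (SE 0.22, adjusted p = 1.21e-08), and Sigirr, a receptor that dampens signalling from the IL-1 and Toll-like receptor family and is known from epithelium, fell by 0.80 (SE 0.13, adjusted p = 0.000176). Of 13 endogenous ligands 11 were tested, of which 7 rose and 1 fell (median 2.07). S100a8 and S100a9 of this list are also on the list of neutrophil markers. Saa1, an acute phase protein whose reads may be shared with its close relative Saa2, rose by 4.96 (SE 0.87, adjusted p = 0.000251), and Hspd1, a mitochondrial chaperone, fell by 1.08 (SE 0.12, adjusted p = 7.16e-06).

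All 14 tested of 16 targets of MyD88 and NF-kB rose (median 3.04), with the largest rise in Lcn2, an iron-binding protein made by injured tubules (6.96, SE 0.47, adjusted p = 7.97e-08). Of 9 tested targets of TRIF and type I interferon 8 rose and 1 was not called (median 1.65), with Mx1, an antiviral GTPase, at the top (2.91, SE 0.23, adjusted p = 3.1e-07). Of 5 receptors of the IL-1 family that also use MyD88, 4 rose and 1 was not called (median 2.34), with Il18r1, the receptor for IL-18, with the largest rise (4.19, SE 0.26, adjusted p = 4.38e-08). These lists were read against the median of 0.02 over all genes tested.

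**Figure D5:**
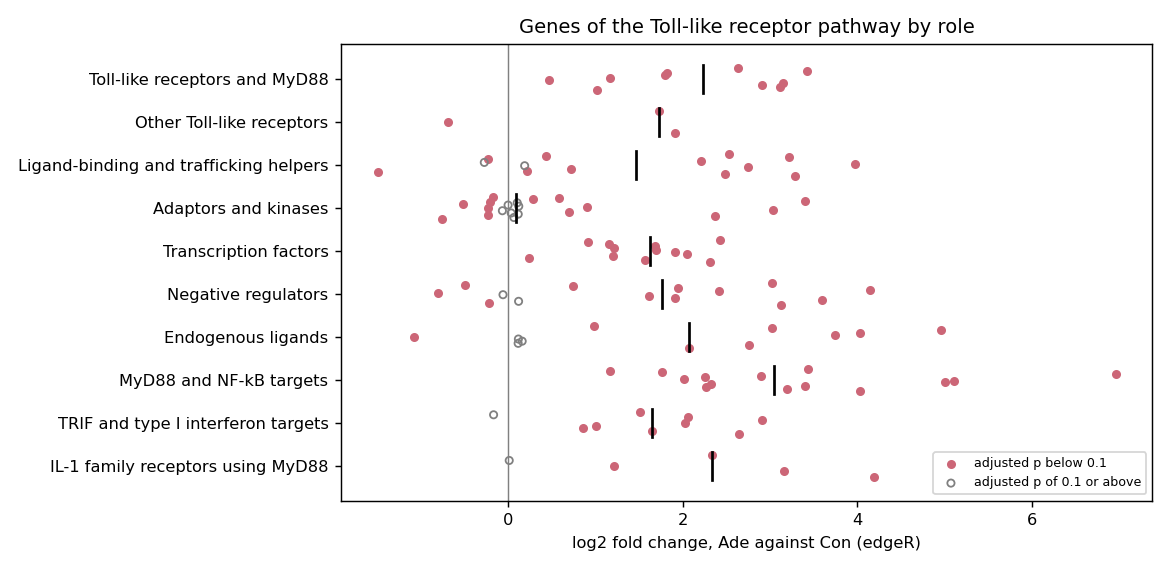
Log2 fold change of Ade against Con (edgeR) for each tested gene of the pathway, in rows by role, with filled red points for an adjusted p below 0.1, open grey points for the others and a black line at the median of each row. All points of the receptors with Myd88, of the transcription factors and of the MyD88 and NF-kB targets lie above 0, and the adaptors and kinases lie around their median of 0.09.

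Whether IMC changed these genes in mice on adenine was read from the normalized counts of the 6 Ade + IMC and 6 Ade mice, by limma on log2(normalized count + 1). The added 1 pulls the change of low genes toward 0. The low genes Tlr6 and Tlr8 had -0.17 and -0.28 in limma, not nearer 0 than in DESeq2 (-0.08 and -0.25) or edgeR (-0.10 and -0.26) on recovered reads. The Ade mice are the same as in the comparison with Con. None of the 10 genes was called at an adjusted p below 0.1 in the limma fit, and of all 14696 genes tested 0% were called (0 genes), while 493 (3.35%) were lower and 495 (3.37%) higher at an unadjusted p below 0.05. DESeq2 on the recovered reads called 37 genes and edgeR 0, none of the 10 among them. These counts depart from the study, which used DESeq2 at the same threshold and reports far more genes for this contrast, in both directions. The cause of that difference was not tested. The limma estimates of 9 of the 10 genes lay below 0, against 48.4% of all genes tested, and the 10 genes share the same mice. Their median was -0.16 against 0.01 for all genes tested, and the estimate of Tlr9 turned to 0.12 in DESeq2 and 0.10 in edgeR.

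In this limma fit Tlr2 was the only one of the 10 with an unadjusted p below 0.05, as were 3.35% of all genes in the lower direction. Its normalized count was 205 to 368 in the Ade mice (median 336) and 139 to 257 in the Ade + IMC mice (median 217). In CPM, all 6 Ade + IMC mice lay below 5 of the 6 Ade mice, and the groups overlapped through mouse 407 of the Ade group alone, which was below 4 of the Ade + IMC mice. In none of the 10 genes did every Ade + IMC mouse lie below every Ade mouse, which held for 0.103% of all genes tested. The log2 difference was -0.61 (SE 0.17, 95% interval -0.97 to -0.25), a level 0.655 times that of the Ade mice, with an unadjusted p of 0.00279 and an adjusted p of 0.695. Without mouse 407 the difference was -0.73, and the adjusted p was 0.149. With a block for the leading digit of the mouse number, which is 2, 3 or 4 and has no stated meaning, Tlr2 was called lower, at -0.68 (adjusted p = 0.0627 in limma). That fit called 133 of the 14696 genes tested, where the fit without the block called 0. Within these digits the difference was -0.55, -0.55 and -0.87. Of the rise in mean CPM from Con to Ade, 38.2% was absent in the Ade + IMC mice.

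The macrophage markers, with which Tlr2 correlated, had a median log2 difference of -0.25 in this comparison, with 10 of the 11 below 0. An unadjusted p below 0.05 was found for 2 of the 11, Itgam, which was lower (-0.59), and Mertk, the only marker above 0 (0.22). The 6 markers of the distal nephron and collecting duct had a median of 0.36, with all 6 above 0 and 2 at an unadjusted p below 0.05, the 5 endothelial markers had 0.31, with all 5 above 0, and the 6 proximal tubule markers had 0.36, with 4 above 0. The correlation of Tlr2 with the distal and the proximal list was -0.73 each. The part of these cell types in the difference of Tlr2 was not tested.

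For each of the other genes the interval held 0 in the limma fit without the block. That of Tlr1 ran from -0.98 to 0.20 around -0.39, that of Tlr8 from -0.85 to 0.29 around -0.28, that of Tlr13 from -0.60 to 0.23 around -0.18 and that of Tlr6 from -0.84 to 0.49 around -0.17. Myd88 had -0.16 (-0.38 to 0.07), Tlr4 -0.08 (-0.40 to 0.24) and Tlr3 -0.05 (-0.27 to 0.17), so that for Tlr3 a fall to below 0.829 times the Ade level lies outside the interval. Tlr7 had 0.03 (-0.46 to 0.51) and Tlr9 -0.09 (-0.83 to 0.66). With the block for the leading digit, Myd88 had -0.21 in limma, at an unadjusted p of 0.0281 and an adjusted p of 0.292.

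Several of these estimates moved with single mice, and none of these 9 genes was called with 1 mouse left out. Without mouse 311 of the Ade + IMC group Tlr7 had -0.18 (adjusted p = 0.663), Tlr9 -0.40 (adjusted p = 0.525), Tlr1 -0.61 and Tlr6 -0.37. Without mouse 412 of the same group Tlr8 had -0.07, Tlr13 -0.05, Tlr9 0.13 and Tlr6 0.0047. With each of the 12 mice left out in turn, Tlr1 ran from -0.61 to -0.25, Tlr8 from -0.42 to -0.07, Tlr13 from -0.29 to -0.05, Myd88 from -0.22 to -0.09, Tlr4 from -0.16 to -0.00036 and Tlr3 from -0.10 to -0.0022. Within the digits 2, 3 and 4 of the mouse number the difference was below 0 throughout for Tlr1 (-0.10, -0.69 and -0.76), Myd88 (-0.11, -0.40 and -0.18) and Tlr13 (-0.09, -0.01 and -0.56). It was of both signs for Tlr3, Tlr4, Tlr6, Tlr7, Tlr9 and Tlr8 (0.09, 0.28 and -1.07 for Tlr8). The digit 3 held 1 Ade mouse.

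The levels of the Ade + IMC mice stayed above those of the Con mice. In 9 of the 10 genes, all but Tlr3, every Ade + IMC mouse was above every Con mouse, as in 20.6% of all genes tested. The ratio of the mean CPM of the Ade + IMC mice to that of the Con mice was 5.82 for Tlr2, against 8.81 for the Ade mice, and 7.07 for Tlr1, 9.35 for Tlr8, 6.86 for Tlr13 and 6.72 for Tlr9. It was 3.75 for Tlr7, 3.36 for Tlr6, 2.13 for Tlr4, 1.80 for Myd88 and 1.34 for Tlr3. In 8 of the 10 genes the mean of the Ade + IMC mice lay below that of the Ade mice, and in Tlr7 and Tlr9 it lay above it, with ratios of the Ade mice to the Con mice of 3.51 and 6.20. Both exceptions rested on mouse 311, without which the mean CPM of the Ade + IMC mice was 14.4 for Tlr7, against 16.2 in the Ade mice, and 11.2 for Tlr9, against 14.7. No test was run of Ade + IMC against Con.

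In the other lists of the pathway no gene was called between Ade + IMC and Ade in the limma fit without the block, which called 0 genes of all tested. These lists were not read in the other fits. The gene with the smallest unadjusted p in each list was Tlr5 among the remaining receptors (-0.49), Cd36 among the helpers (0.65), Sarm1, an adaptor known as a negative regulator of TRIF, among the adaptors and kinases (-0.44), and Relb among the transcription factors (-0.45). It was Atf3, a repressor induced by the pathway, among the negative regulators (-0.76), Vcan, a matrix proteoglycan, among the ligands (-0.59), and Ccl2, a monocyte chemokine, among the MyD88 and NF-kB targets (-0.66). It was Cxcl10 among the targets of TRIF and interferon (-0.44) and Il18rap among the IL-1 family receptors (-0.34). Of these, which were picked for their p, Tlr5, Cd36, Relb, Atf3, Vcan and Ccl2 were at an unadjusted p below 0.05, as were 3.35% of all genes tested in the lower and 3.37% in the higher direction. By list, that held for 1 of 3 remaining receptors, 3 of 14 helpers, 0 of 20 adaptors and kinases, 1 of 12 transcription factors, 1 of 14 negative regulators, 3 of 12 ligands, 3 of 15 MyD88 and NF-kB targets, 0 of 9 targets of TRIF and interferon and 0 of 5 IL-1 family receptors. The estimate was below 0 in 12 of 12 transcription factors (median -0.18) and 13 of 15 MyD88 and NF-kB targets (median -0.24), against 48.4% of all genes tested (median 0.01), and the genes of a list share the same mice.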

How the data were processed

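Whole kidneys of apoE knockout mice were measured by RNA-seq with short single-end reads. The authors aligned the reads to mm10. Their methods name STAR, and the submitters' processing notes name Trimmomatic 0.39, FastQC 0.11.8, Bowtie2 2.2.5, HTSeq 0.9.1 and DESeq2. Neither the release of the annotation nor strand-specific counting is given in the sources used here. For Con and Ade the authors counted the aligned reads of each gene and deposited the raw counts. For Ade and Ade + IMC the authors normalized the counts and deposited a signal, each count divided by DESeq2's size factor. The third table, with the authors' own fold changes and p-values, was read only for its gene names. Groups were taken from the treatment in the labels. That the mice are separate animals follows from their numbers.

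The signal values above 0 were whole multiples of 1 read (100% within 0.01 reads), and 0 of the values of the 6 Ade mice differed from their raw counts. No libraries of a group agreed within counting noise (lowest chi-square per degree of freedom 4.21). Ade was compared with Con by edgeR 4.0.16 (quasi-likelihood test, TMM, filterByExpr, 14612 genes), and Ade + IMC with Ade by limma-trend (limma 3.58.1) on log2(signal + 1), for 14696 genes with a mean of at least 10, all in R 4.3.3. A Benjamini-Hochberg adjusted p below 0.1 made a call. The alternatives were DESeq2 1.42.0, edgeR on recovered reads, other scaling, filters, pseudocounts (0.5 and 4) and thresholds, each mouse left out, and a block for the leading digit of the mouse number. DESeq2 and edgeR with this block, and the correlations and mean CPM without mouse 311, were added after seeing the data. Scripts were tested on simulated data with 200 changed genes. Exonic lengths and coordinates are those of GENCODE on GRCm38.

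The genes and lists were chosen with earlier results of these data known. Each list is described by its counts and median, and by name its largest called rise and fall and its smallest p in the IMC comparison. The genes most like each gene are the 3 with the highest Pearson r. The Con + IMC mice were not analysed here.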

Additional observations from a re-analysis of the deposited data

Results flagged for a closer look

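In 30 sets of values (10 genes in 3 groups), 5 values, from 3 mice, stood farther from the rest of their group than Dixon's 95% limit allows, and chance alone gives about 1 in 20. Tlr2 was at 27.6 CPM in mouse 407 of the Ade group, against 43.6 to 49.0 in the other Ade mice. The same mouse had the lowest macrophage sum of the Ade group (1657 CPM) and the highest proximal tubule sum (5663 CPM), and their part in its Tlr2 level was not tested. Mouse 409 of the Ade group was high in Tlr4 (16.3 CPM, against 11.2 to 12.6 in the others) and in Tlr7 (23.5 CPM, against 12.7 to 16.5).

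Mouse 311 of the Ade + IMC group was high in Tlr7 (32.4 CPM, against 12.8 to 17.8) and in Tlr9 (39.7 CPM, against 6.45 to 13.6). It also had the highest sums of its group for B cell (303 CPM), T cell (265 CPM), plasmacytoid dendritic cell (8.96 CPM), dendritic cell (197 CPM) and macrophage markers (2455 CPM), and the lowest for the proximal tubule (2316 CPM) and for the distal nephron and collecting duct (6193 CPM). Their part in its Tlr7 and Tlr9 levels was not tested.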

How the results depend on the processing

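From Con to Ade, 10 of the 10 genes were called higher in each of 17 alternatives. Between Ade + IMC and Ade, no gene of the 10 was called in any alternative except those with a replicate block for the leading digit of the mouse number, where 1 was, Tlr2, at -0.68 (adjusted p = 0.0627) in limma, -0.69 (0.00102) in DESeq2 and -0.70 (0.0711) in edgeR. Over 21 alternatives Tlr2 ran from -0.73 to -0.50, with adjusted p from 0.00102 to 0.996. Between Ade and Ade + IMC mice of the same digit the mean correlation of deviations was 0.23, 0.13 and 0.11 for the digits 2, 3 and 4, against -0.05, -0.15 and -0.07 for other digits, but single pairs went down to -0.26, so the digit, whose meaning is not stated, was not taken as a pairing. Counts of all genes called moved from 0 to 37 with DESeq2, and with the block to 133 in limma, 591 in DESeq2 and 104 in edgeR, and the cause was not tested. Some estimates that were not called changed sign. Tlr7 was at -0.018 with the block and ran from -0.18 to 0.14 with 1 mouse left out in turn, below 0 without Ade + IMC replicates 2 or 4 or Ade replicates 1 or 2. Tlr9 was at 0.12 with DESeq2 and 0.10 with edgeR and ran from -0.40 to 0.13 with 1 mouse left out, above 0 without Ade + IMC replicate 6 or Ade replicate 6. Tlr6 ran from -0.37 to 0.0047, above 0 without Ade + IMC replicate 6. Low depth limits Tlr6 and Tlr8, with 2 to 12 reads in each Con mouse.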
